A study of Mus musculus with 6 samples.

Results

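Described here are 10 genes of metabolism and redox control that are reported as targets of the transcription factor p53: Sesn1, Sesn2, Tigar, Cpt1c, Ak1, Dcxr, Ephx1, Fdxr, Steap3 and Slc19a2. They were taken by gene symbol from the deposited expression table, where all 10 symbols were found among 54532 genes. RNA was measured in haploid mouse embryonic stem cells of strain 129SV, in 3 p53-deficient libraries and 3 wild-type (WT) libraries. Such cells have 1 copy of each chromosome and often turn diploid, and the series asks how less apoptosis affects that change. Sample titles write P53ki for the first group, its genotype field gives haploid cells lacking P53, and the design text calls it a knockout. How p53 was disrupted, whether each genotype is 1 clone and whether the libraries come from separate cultures are not given in the sources used here. The p-values therefore rest only on how much libraries of a group varied, which may be technical variation, and a difference between clones or cultures cannot be told apart from one due to p53.

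p53 is a stress-activated transcription factor best known for halting the cell cycle and starting apoptosis. It also controls genes that slow growth when nutrients are short, steer glucose away from glycolysis, support fatty acid use and buffer oxidants, and these act in cells that carry only everyday stress. Embryonic stem cells hold much p53 protein and divide rapidly. The members are ordered below by role: nutrient sensing, carbon and fatty acid fuel, adenine nucleotides, reduction of carbonyls and epoxides, mitochondrial electron transfer and iron, and vitamin uptake.

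Of the 10 genes, 9 were lower in p53-deficient cells, and 6 of these stood at under 25% of their WT level. Dcxr, Ephx1, Cpt1c, Ak1, Sesn2 and Slc19a2 were at 7.81%, 9.65%, 12.5%, 16.6%, 18.3% and 22.8% of the WT mean FPKM. Steap3 was at 58.2%, Sesn1 at 79.9% and Fdxr at 79%, while Tigar was at 95.8% and did not pass the test. FPKM is a read count scaled to gene length and to the depth of the library. Calls were made with limma on log2(FPKM + 1) where the adjusted p lay below 0.05. An alternative, median scaling, shifted each library by its median log2 ratio to the mean of all 6 over abundant genes. All 10 genes passed the filter of a mean of at least 0.5 FPKM, 9 were called lower and 0 higher, where 31.3% of all 15144 tested genes were called lower and 35.3% higher. There were 6 genes called lower by at least 2-fold on the log2(FPKM + 1) scale, which held for 6.3% of tested genes. In all 10, Tigar included, the 3 p53-deficient libraries lay below the 3 WT libraries, a pattern seen in 33.7% of tested genes. Over all tested genes 4733 were called lower and 5341 higher, or 5611 and 4258 with median scaling. The median log2 fold change was -2.06 for the 10 genes and 0.03 for all tested genes.

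**Figure D1:**
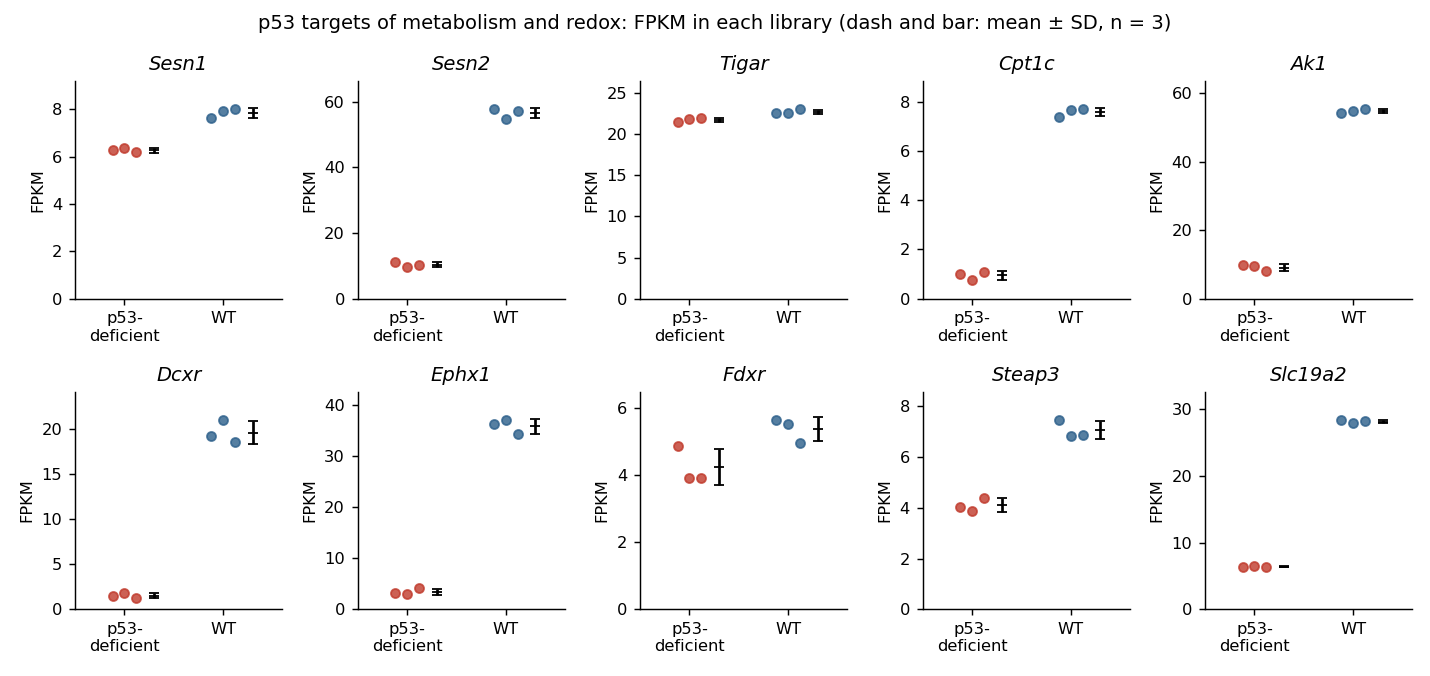
FPKM (y axes, each starting at 0) of the 10 genes in 3 p53-deficient libraries (red, left) and 3 WT libraries (blue, right), with mean and SD beside the points. The groups are far apart in 6 genes, such as Dcxr with 1.53 FPKM in p53-deficient cells and 19.6 FPKM in WT cells, and close together in Sesn1, Fdxr and Tigar.

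The libraries held 11536412 to 21218976 reads in listed genes in the p53-deficient group and 17065841 to 20331905 in the WT group, rebuilt from FPKM and gene length. Trp53, which encodes p53, had 9.71, 9.71 and 9.98 FPKM in p53-deficient libraries, against 64.5, 69.8 and 69.6 FPKM in WT libraries. Embryonic stem cell markers were abundant in both groups: 5 of 12 markers fell, 6 rose and 1 missed the threshold, or 6 and 4 with median scaling. Pou5f1 differed little, with 396 to 425 FPKM in p53-deficient libraries and 367 to 376 FPKM in WT libraries, a call that ended with median scaling. Larger rises were in Utf1 (303 FPKM in p53-deficient and 61.6 FPKM in WT cells), Lin28a (89.3 and 30.9 FPKM) and Esrrb (101 and 54.4 FPKM), and larger falls in Dppa5a (1075 FPKM in p53-deficient and 2007 FPKM in WT cells) and Nanog (221 and 330 FPKM). Markers of fibroblasts, the usual feeder cells, differed strongly: 27 of 30 passed the filter and all 27 were lower, their sum over 30 genes was 547 to 574 FPKM in p53-deficient libraries against 2003 to 2012 FPKM in WT libraries, and no marker was at 0 in either group. Reads of 4 Y-linked genes numbered 28 to 42 in p53-deficient libraries and 330 to 423 in WT libraries. In summed FPKM the fibroblast markers were at 27.8% of WT and the Y-linked genes at 9.66%. Taken singly, the 6 members that fell most were at 7.81% to 22.8%. Single fibroblast markers that passed the filter lay between 7.85% (Prrx1) and 72.3% (Vim) of WT. Their median log2 fold change was -2.22, against -2.06 for the 10 members. The part of fibroblast RNA in the members' values was not tested, and fewer cells of a type cannot be told apart from less RNA per cell.

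Sestrins bind the GATOR2 complex when leucine is scarce and thereby hold back mTORC1, the kinase complex that drives growth. Sesn2 (ENSMUSG00000028893, chromosome 4, 132492032 to 132510501, minus strand, on mm10 as all gene positions here) had 11.1, 9.61 and 10.4 FPKM in p53-deficient libraries, against 57.7, 54.8 and 57.1 FPKM in WT libraries. The lowest WT library lay far above the highest p53-deficient one. Its log2 fold change was -2.34 with SE 0.052 (limma adjusted p = 2.27e-07), the 124th lowest of all tested genes. Sesn1 (ENSMUSG00000038332, chromosome 10, 41809935 to 41908424, plus strand) had 6.27, 6.37 and 6.18 FPKM in p53-deficient libraries, against 7.62, 7.92 and 8 FPKM in WT libraries. The gap was narrow but free of overlap, and the log2 fold change was -0.28 with SE 0.0345 (adjusted p = 0.000389). Sesn3, the remaining sestrin, fell to 2.28 ± 0.0982 FPKM in p53-deficient cells, against 4.12 ± 0.157 FPKM in WT cells (SD, n = 3 each). The 3 genes together summed to 18.9 ± 0.765 FPKM in p53-deficient cells and 68.5 ± 1.35 FPKM in WT cells. Sesn2 held 52.9% to 56.6% of that sum in p53-deficient libraries and 81.8% to 83.3% in WT libraries, and Sesn1 held 31.8% to 35.1% in p53-deficient libraries and 11% to 11.8% in WT libraries. Each shift in share gave p = 0.1 in an exact two-sided permutation test, the smallest that 3 against 3 libraries allow, as for every family share below.

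Sequence upstream of the sestrin starts is shown because Sesn2 and Sesn1 differed so much in the size of their fall. In the RefSeq window of Sesn2, 250 bases before to 50 after the start on GRCm38.p6 (chr4:132510407-132510706, minus strand), the capitals mark the letters TGACNNNGC, the core of the antioxidant response element bound by NRF2, which begins 36 bases upstream of the start. Sesn1 has 2 annotated starts, and the window of the internal one (chr10:41887189-41887488, plus strand) holds a stretch that differs from the 20-base p53 consensus at 3 positions, marked in capitals and beginning 173 bases upstream. The marks are of different motifs and give no comparison of the genes. The closest p53 stretch differs at 9 positions in the Sesn2 window. In the Sesn1 window nearest the gene's 5′ end it differs at 8. TGACNNNGC was present in 12.4% and at most 3 p53 differences in 1.38% of all 32851 windows. Both marks are letter matches and not measured binding sites, and a link to the size of the fall was not tested.
Sesn2: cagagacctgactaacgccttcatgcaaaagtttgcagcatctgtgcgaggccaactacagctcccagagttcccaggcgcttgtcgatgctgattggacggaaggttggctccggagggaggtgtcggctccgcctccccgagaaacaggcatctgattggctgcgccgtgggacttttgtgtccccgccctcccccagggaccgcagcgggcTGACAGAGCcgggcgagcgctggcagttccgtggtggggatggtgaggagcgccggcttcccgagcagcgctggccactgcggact
Sesn1, internal start: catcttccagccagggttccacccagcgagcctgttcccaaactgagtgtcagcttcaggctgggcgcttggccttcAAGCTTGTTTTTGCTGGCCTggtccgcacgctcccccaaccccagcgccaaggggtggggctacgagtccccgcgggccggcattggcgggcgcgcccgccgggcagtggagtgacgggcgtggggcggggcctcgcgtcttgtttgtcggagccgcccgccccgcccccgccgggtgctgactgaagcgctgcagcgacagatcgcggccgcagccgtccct

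Of 22 genes of amino acid signalling to mTORC1, 13 were higher, 5 lower and 4 did not pass, with a median log2 fold change of 0.16. The counts were 8 higher and 6 lower with median scaling, and 14 higher and 5 lower after quantile normalization. The 22 are Sesn3 itself and genes for the GATOR complexes and their KICSTOR anchor, the CASTOR arginine sensors, the Rag GTPases, the TSC complex, Mtor and Rptor, and the 5 lower ones were Sesn3, Sec13, Nprl3, Castor1 and Castor2. Rptor, the scaffold subunit of mTORC1, rose to 11.4 ± 0.0548 FPKM in p53-deficient cells, against 5.39 ± 0.211 FPKM in WT cells (log2 fold change 0.96). Rragd, a Rag GTPase, rose to 24.5 ± 0.565 FPKM in p53-deficient cells, against 14.4 ± 0.499 FPKM in WT cells (0.73). Rragc stood at 15.7 FPKM in both groups. Because Sesn2 is also a known target of ATF4, the transcription factor of amino acid stress, that list was counted too. All 18 of its genes, Sesn3 again among them, were lower, with a median log2 fold change of -0.78, where 31.3% of all tested genes were lower. A part of ATF4 in the fall of Sesn2 was not tested. Nupr1 had 1.92 ± 0.199 FPKM in p53-deficient cells and 31.9 ± 1.09 FPKM in WT cells, Cebpb had -2.10 and Chac1 -1.78 as log2 fold change. Exons of Cebpb overlap another expressed gene over 20.7% of their length.

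Tigar encodes a phosphatase that lowers fructose 2,6-bisphosphate, an activator of glycolysis, and so favours the pentose phosphate pathway. Tigar (ENSMUSG00000038028, chromosome 6, 127085116 to 127109557, minus strand) had 21.5, 21.8 and 22 FPKM in p53-deficient libraries, against 22.6, 22.6 and 23 FPKM in WT libraries. Every p53-deficient library lay below every WT library, but by little. The log2 fold change was -0.06 with SE 0.0241 and did not pass (adjusted p = 0.0672). It was called lower with median scaling (-0.15, adjusted p = 0.00182) and after quantile normalization (-0.14, adjusted p = 0.00281). In rebuilt reads Tigar was at 94.3% of WT, with a 95% exact binomial interval of 90.4% to 98.3% that covers counting error only. Of the 10 members it had the smallest change and, in its window nearest the gene's 5′ end, the closest match to the p53 consensus. That match differs at 3 of 20 positions and begins 213 bases upstream of the start (chr6:127109503-127109802, minus strand), in capitals here. At most 3 differences were found in 1.38% of all 32851 windows. The match is not a measured binding site, and a link to the size of the change was not tested.
Tigar: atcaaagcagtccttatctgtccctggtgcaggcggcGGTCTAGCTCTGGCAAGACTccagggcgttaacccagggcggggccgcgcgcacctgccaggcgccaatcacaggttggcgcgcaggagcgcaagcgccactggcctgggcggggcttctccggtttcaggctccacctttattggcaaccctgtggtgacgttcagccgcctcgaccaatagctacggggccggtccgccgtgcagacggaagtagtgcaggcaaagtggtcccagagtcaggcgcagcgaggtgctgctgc

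Genes that act on the same sugar phosphates gave a mixed picture. Among 8 tested genes of fructose 2,6-bisphosphate and phosphofructokinase, 4 were lower and 2 higher, or 4 and 0 with median scaling. Fbp2, a fructose bisphosphatase, fell to 1.51 ± 0.376 FPKM in p53-deficient cells, against 9.63 ± 0.253 FPKM in WT cells (log2 fold change -2.09). Pfkl and Pfkfb3, which encode a phosphofructokinase and a kinase that makes fructose 2,6-bisphosphate, fell with -0.52 and -0.50. Pfkfb1 was at 2.93 ± 0.162 FPKM in p53-deficient cells and 2.83 ± 0.297 FPKM in WT cells and did not pass. Of 8 pentose phosphate genes 3 were higher and 3 lower, or 1 and 4 with median scaling. G6pdx, the entry enzyme of the pathway, rose with 0.22. H6pd, its counterpart in the endoplasmic reticulum, fell with -1.06 and Pgls with -0.62, where 20.6% of the exon length of Pgls overlaps another expressed gene. Taldo1 stood at 118 ± 4.38 FPKM in p53-deficient cells and 115 ± 0.76 FPKM in WT cells without passing.

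Cpt1c is the carnitine palmitoyltransferase isoform best known from brain, where it resides in the endoplasmic reticulum and has little of the acyl transfer activity of its relatives. Cpt1c (ENSMUSG00000007783, chromosome 7, 44959372 to 44974851, minus strand) had 1, 0.756 and 1.09 FPKM in p53-deficient libraries, against 7.38, 7.67 and 7.68 FPKM in WT libraries. The groups were well apart. Its log2 fold change was -2.14 with SE 0.073 (adjusted p = 1.24e-06), and with a pseudocount of 0.1 it was -2.88. These levels rest on 49 to 118 reads in a p53-deficient library and 714 to 886 in a WT library. Cpt1a, the main isoform of most tissues, fell to 18.6 ± 0.276 FPKM in p53-deficient cells, against 36.3 ± 1.17 FPKM in WT cells (log2 fold change -0.93). Cpt1b, the muscle isoform, stayed under 0.1 FPKM in every library and below the filter. Cpt1c held 3.97% to 5.52% of the summed CPT1 FPKM in p53-deficient libraries and 16.9% to 17.9% in WT libraries. Of 17 tested genes of the carnitine shuttle and mitochondrial fatty acid oxidation, 8 fell, 4 rose and 5 missed the threshold, or 10 fell and 2 rose with median scaling. Next to Cpt1a the largest falls were in Acadl, an acyl-CoA dehydrogenase, with -0.69, and Etfdh, which passes electrons on to ubiquinone, with -0.59. Etfa was at 60.9 ± 1.39 FPKM in p53-deficient cells and 61.7 ± 2.52 FPKM in WT cells and did not pass, though it was called lower under both scaling alternatives.

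Ak1 encodes the cytosolic adenylate kinase, which interconverts ATP, ADP and AMP. Ak1 (ENSMUSG00000026817, chromosome 2, 32621758 to 32635058, plus strand) had 9.72, 9.54 and 8 FPKM in p53-deficient libraries, against 54.4, 54.8 and 55.3 FPKM in WT libraries. The WT libraries were nearly equal (SD 0.794% of their mean), and no p53-deficient library came near them. Ak1 had a log2 fold change of -2.47 with SE 0.0669 (adjusted p = 5.06e-07). Relatives of Ak1 moved in both directions. Ak4, a kinase of the mitochondrial matrix, rose to 48.3 ± 1.82 FPKM in p53-deficient cells, against 21.1 ± 0.282 FPKM in WT cells (log2 fold change 1.16). Ak6 rose with 0.34 and Ak3 fell with -0.75, while Ak5 stayed below the filter. Among 15 tested genes of adenylate kinases and AMP handling 6 were higher and 5 lower, or 5 and 7 with median scaling. Ampd3, an AMP deaminase, fell to 0.752 ± 0.116 FPKM in p53-deficient cells, against 4.98 ± 0.0142 FPKM in WT cells (-1.77). Ampd2, another AMP deaminase, stood at 10.7 and 11 FPKM in p53-deficient and WT cells and did not pass, though it was called lower with median scaling.

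Dcxr encodes a reductase of dicarbonyls and L-xylulose that uses NADPH. Dcxr (ENSMUSG00000039450, chromosome 11, 120725399 to 120727281, minus strand) had 1.54, 1.82 and 1.24 FPKM in p53-deficient libraries, against 19.2, 21 and 18.6 FPKM in WT libraries. All 3 WT libraries were high, and all 3 p53-deficient libraries were low. Dcxr had a log2 fold change of -3.03 with SE 0.0909 (adjusted p = 7.58e-07), and it was -3.61 with a pseudocount of 0.1. Only 24 to 37 reads per p53-deficient library stand behind these levels, against 379 to 474 per WT library. In pooled reads Dcxr was at 7.53% of WT, with a 95% exact binomial interval of 5.98% to 9.37%. Other genes that act on carbonyls and sugars, the kinase genes Xylb and Khk included, were divided. Among 11 tested, 5 fell, 4 rose and 2 failed the test, or 6 and 3 with median scaling. Sord, sorbitol dehydrogenase, fell to 9.9 ± 0.549 FPKM in p53-deficient cells, against 34.8 ± 0.221 FPKM in WT cells (-1.72). Akr1b3, the aldose reductase that makes sorbitol from glucose, rose to 48 ± 1.02 FPKM in p53-deficient cells, against 22.4 ± 0.221 FPKM in WT cells (1.07). Dhrs4, a peroxisomal carbonyl reductase, rose with 1.10. Cbr3 had 63.4 ± 2.17 FPKM in p53-deficient cells and 63.6 ± 1.14 FPKM in WT cells and did not pass, though it was called lower under both scaling alternatives.

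Ephx1 encodes microsomal epoxide hydrolase, which opens reactive epoxides to diols. Ephx1 (ENSMUSG00000038776, chromosome 1, 180976210 to 181020904, minus strand) had 3.24, 3.06 and 4.1 FPKM in p53-deficient libraries, against 36.4, 37.1 and 34.3 FPKM in WT libraries. No library of either group came close to the other. The log2 fold change of -3.05 with SE 0.087 (adjusted p = 6.14e-07) was the 40th lowest of all tested genes, next to Dcxr at the 41st. Ephx2, the soluble hydrolase that acts on fatty acid epoxides, fell to 5.32 ± 0.536 FPKM in p53-deficient cells, against 13.2 ± 0.292 FPKM in WT cells (-1.17). Ephx3 and Ephx4 stayed below the filter. Ephx1 held 35.8% to 41.5% of the summed epoxide hydrolase FPKM in p53-deficient libraries and 72.2% to 73% in WT libraries. Of 15 tested genes of epoxide hydrolysis and NRF2-driven detoxification 8 were lower and 5 higher, or 8 and 3 under each scaling alternative. Mgst1, a membrane-bound glutathione transferase, fell to 0.597 ± 0.0846 FPKM in p53-deficient cells, against 6.39 ± 0.52 FPKM in WT cells (-2.21). Hmox1, which degrades haem, fell with -1.14, and Gstm1 was at 36.1 and 36.7 FPKM in p53-deficient and WT cells without passing. The 5 higher genes were Nfe2l2, Txnrd1, Cat, Gclc and Gclm, the last pair losing the call under each scaling alternative. Nfe2l2, which encodes NRF2, rose to 37.6 ± 2.11 FPKM in p53-deficient cells, against 20.2 ± 0.345 FPKM in WT cells (0.86).

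Windows around the starts of Dcxr and Ephx1 are shown because these genes fell most. Capitals mark the stretch closest to the 20-base p53 consensus, with 4 differing positions in Dcxr (chr11:120727235-120727534, minus strand) and 5 in Ephx1 (chr1:181017520-181017819, minus strand). The stretches begin 22 and 6 bases after the start. The start used for Ephx1 lies 3335 bases from the 5′ end of the gene as deposited, and that for Dcxr 3 bases. At most 4 differences were found in 4.8% and at most 5 in 12.4% of all 32851 windows. Neither match is a measured binding site.
Dcxr: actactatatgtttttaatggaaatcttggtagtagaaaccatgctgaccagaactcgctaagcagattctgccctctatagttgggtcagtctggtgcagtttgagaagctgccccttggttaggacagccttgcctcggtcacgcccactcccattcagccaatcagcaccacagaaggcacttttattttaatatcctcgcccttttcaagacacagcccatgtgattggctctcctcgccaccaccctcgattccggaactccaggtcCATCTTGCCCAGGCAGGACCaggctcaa
Ephx1: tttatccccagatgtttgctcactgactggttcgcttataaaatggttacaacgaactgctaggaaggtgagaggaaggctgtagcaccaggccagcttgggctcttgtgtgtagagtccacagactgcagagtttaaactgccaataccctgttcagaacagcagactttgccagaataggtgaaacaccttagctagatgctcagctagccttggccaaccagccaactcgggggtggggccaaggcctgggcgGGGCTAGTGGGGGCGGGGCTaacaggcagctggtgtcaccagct

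Fdxr encodes ferredoxin reductase, which feeds electrons from NADPH to mitochondrial ferredoxins for iron-sulfur cluster and steroid synthesis. Fdxr (ENSMUSG00000018861, chromosome 11, 115268024 to 115277050, minus strand) had 4.86, 3.92 and 3.92 FPKM in p53-deficient libraries, against 5.63, 5.5 and 4.95 FPKM in WT libraries. The groups nearly touched, with p53-deficient library 1 just under WT library 3. The log2 fold change was -0.29 with SE 0.0838 (adjusted p = 0.0215). This call was the least stable of the 9: adjusted p was 0.0605 after quantile normalization, 0.0698 without WT replicate 1, 0.0654 without WT replicate 2, 0.0629 without p53-deficient replicate 2 and 0.0673 without p53-deficient replicate 3. Fdx1, a ferredoxin that accepts its electrons, fell to 5.24 ± 0.273 FPKM in p53-deficient cells, against 6.06 ± 0.23 FPKM in WT cells (-0.18), a call that ended with quantile normalization. Among 14 tested genes of ferredoxins and iron-sulfur cluster assembly 6 were higher and 4 lower, or 3 and 5 with median scaling. Nfu1, which serves cluster transfer, rose with 0.76, and the co-chaperone gene Hscb fell with -0.44. Nfs1, the cysteine desulfurase gene, had -0.11 and did not pass as deposited, though it was called lower under both scaling alternatives.

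Steap3 encodes the endosomal ferrireductase that frees iron taken up with transferrin. Steap3 (ENSMUSG00000026389, chromosome 1, 120190757 to 120272705, minus strand) had 4.02, 3.88 and 4.4 FPKM in p53-deficient libraries, against 7.45, 6.81 and 6.87 FPKM in WT libraries. The groups did not overlap, and the log2 fold change was -0.66 with SE 0.0556 (adjusted p = 6.83e-05). Steap4, a reductase of the same family at the cell surface, fell further, to 0.176 ± 0.0816 FPKM in p53-deficient cells, against 3.09 ± 0.282 FPKM in WT cells (-1.80). Steap2 fell with -0.33. Steap1 had 12.1 ± 0.697 FPKM in p53-deficient cells and 10.7 ± 1.25 FPKM in WT cells and did not pass. Steap3 thus held 21.2% to 22% of the summed STEAP FPKM in p53-deficient libraries and 28% to 30.3% in WT libraries. Of 16 tested genes of iron uptake, storage and export 8 were lower and 5 higher, or 10 and 3 with median scaling. Tfrc, the transferrin receptor gene, fell to 35.4 ± 0.628 FPKM in p53-deficient cells, against 53 ± 0.595 FPKM in WT cells (-0.57). Mcoln1, an endolysosomal channel gene, fell with -0.61. Ftl1, a ferritin subunit gene with 26.5% of its exon length shared with another expressed gene, stood at 1226 ± 88.5 FPKM in p53-deficient cells and 1318 ± 26.5 FPKM in WT cells without passing, though it was called lower with median scaling (-0.21).

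Slc19a2 encodes a high-affinity thiamine (vitamin B1) transporter. Slc19a2 (ENSMUSG00000040918, chromosome 1, 164249046 to 164265385, plus strand) had 6.4, 6.47 and 6.34 FPKM in p53-deficient libraries, against 28.3, 27.8 and 28.1 FPKM in WT libraries. The libraries within each group were almost equal, and the groups lay far apart. The log2 fold change was -1.97 with SE 0.0257 (adjusted p = 3.03e-08). Slc19a1, the folate carrier of the family, rose to 6.8 ± 0.18 FPKM in p53-deficient cells, against 5.88 ± 0.303 FPKM in WT cells (0.18), a call that ended with median scaling. Slc19a3, the second thiamine carrier, stayed below 0.4 FPKM in every library and below the filter. Slc19a2 held 47.3% to 49.1% of the summed SLC19 FPKM in p53-deficient libraries and 81.2% to 82.8% in WT libraries. Of 12 tested genes of thiamine transport and metabolism and of enzyme complexes that use thiamine, 5 were higher, 3 lower and 4 did not pass. Their median log2 fold change was 0.03, and 2 were higher and 4 lower with median scaling. Dld and Pdha1, subunits of the pyruvate dehydrogenase complex, rose with 0.29 and 0.20. Pdhb had 64.6 ± 0.138 FPKM in p53-deficient cells and 65.4 ± 1.33 FPKM in WT cells and did not pass, though it was called lower under both scaling alternatives.

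**Figure D2:**
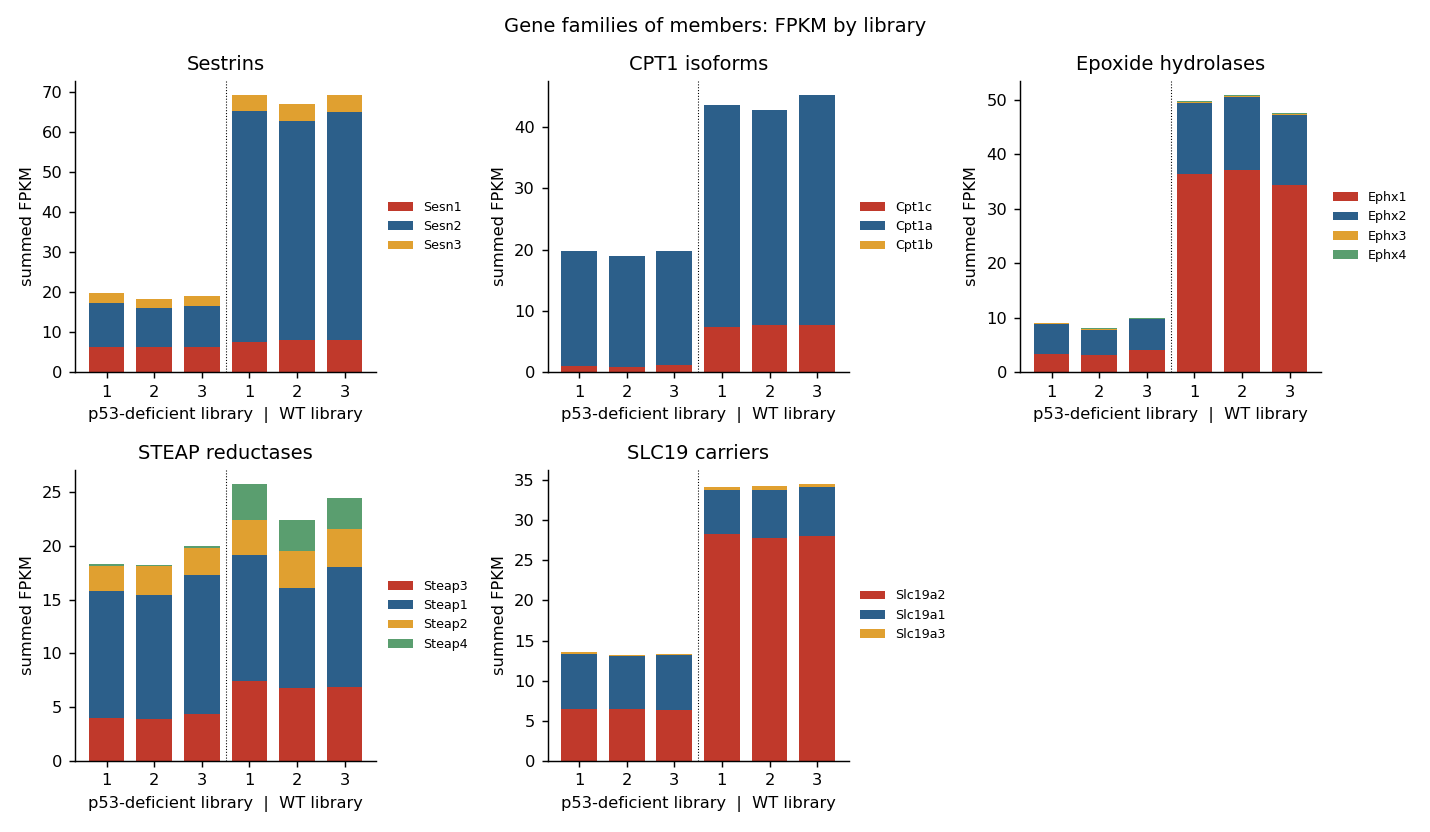
Summed FPKM (y axes) of 5 gene families in each library, p53-deficient libraries left of the dotted line and WT libraries right of it, with the member gene in red at the base of each bar and, for sestrins, Sesn2 above Sesn1. In the 5 families plotted, which leave out the relatives of Ak1, the bars are lower in every p53-deficient library than in any WT library, as for sestrins with 18.2 to 19.7 FPKM in p53-deficient libraries and 66.9 to 69.3 FPKM in WT libraries.

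**Figure D3:**
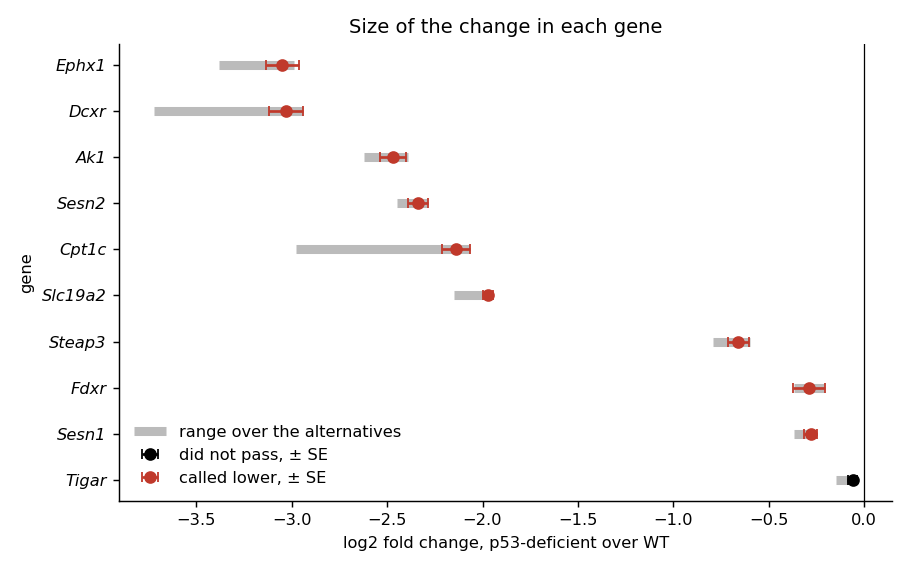
Log2 fold change of each gene, p53-deficient over WT (x axis), with SE as bars and the range over the alternatives as grey bands, whose pseudocount and voom values are on other log scales. The 6 lowest genes lie at -1.97 or below, and Tigar, in black, did not pass.

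Other metabolic and redox genes reported as p53 targets were counted as well. Of 17 tested, 11 fell, 2 rose and 4 missed the threshold, with a median log2 fold change of -0.39. Ddit4, a stress-induced inhibitor of mTORC1, fell to 6.61 ± 0.75 FPKM in p53-deficient cells, against 84.4 ± 2.39 FPKM in WT cells (-3.49). Trp53inp1, which encodes a p53-binding stress protein, fell with -3.32, and Ass1, an enzyme of arginine synthesis, with -1.88. Pank1, which starts coenzyme A synthesis, had 5.02 ± 0.224 FPKM in p53-deficient cells and 4.59 ± 0.0758 FPKM in WT cells and did not pass, though quantile normalization called it higher. Sco2 was listed at 0 in all 6 libraries, and 66.2% of its exon length overlaps another expressed gene.

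**Figure D4:**
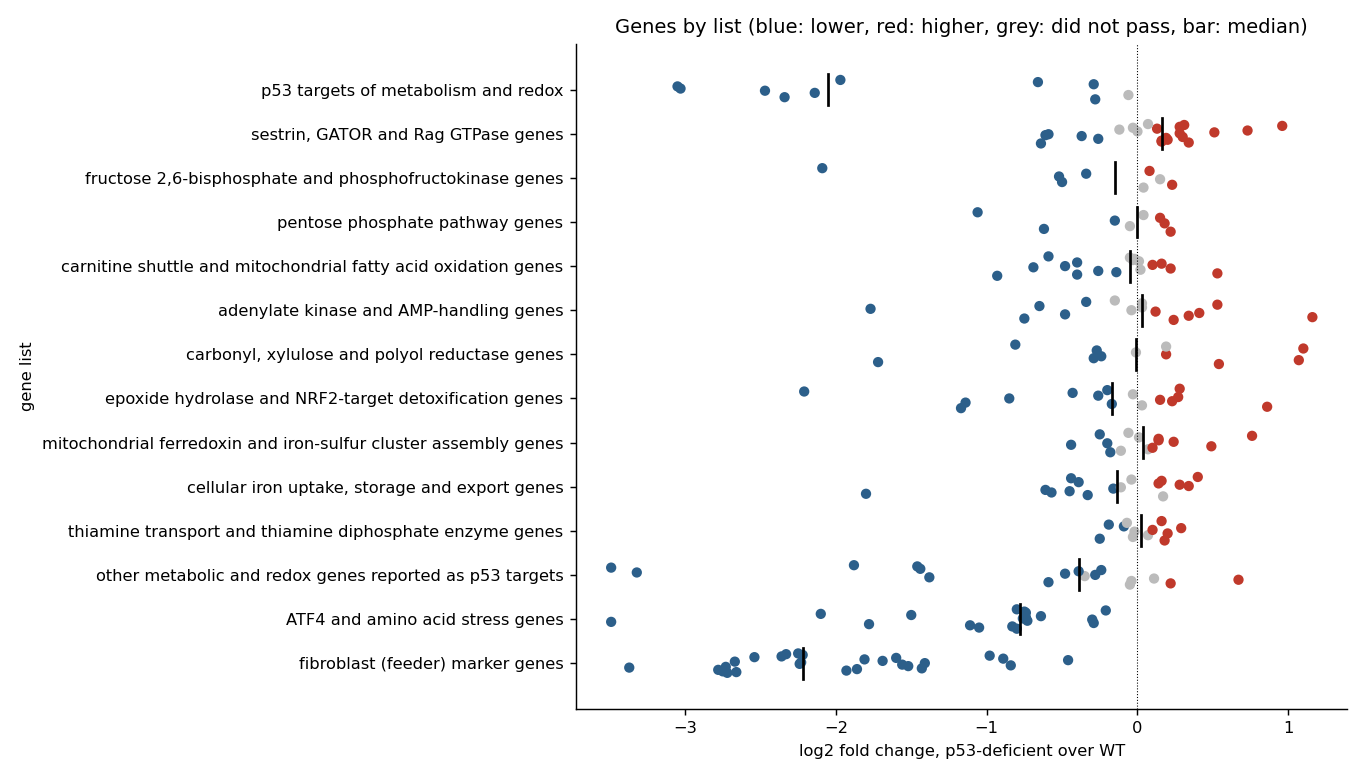
Log2 fold change, p53-deficient over WT (x axis), of the tested genes of each list (y axis), with the median as a black bar. The p53 targets of metabolism and redox have a median of -2.06, the ATF4 list -0.78 and the fibroblast markers -2.22, while the 10 lists of related pathway genes have medians between -0.17 and 0.16.

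None of the 10 members has exons shared with an expressed gene (mean of at least 0.5 FPKM) in GENCODE. No near-identical transcript of another gene was found at the cutoffs given below. Shared stretches that are shorter or less alike were not checked. Genes next to them were compared as well, after the members' values had been seen. The nearest tested gene on each side was lower in 7, higher in 4 and did not pass in 9 of 20 cases. Of all tested genes 31.3% were lower and 35.3% higher. Cep57l1 lies 64 bases from Sesn1 and had 4.26 ± 0.145 FPKM in p53-deficient cells and 4.26 ± 0.255 FPKM in WT cells. Ccnd2 (cyclin D2), 15605 bases from Tigar, fell to 2.94 ± 0.242 FPKM in p53-deficient cells, against 12.7 ± 0.241 FPKM in WT cells (-1.80), although Tigar itself did not pass. Eng (endoglin), 11537 bases from Ak1, fell to 1.37 ± 0.263 FPKM in p53-deficient cells, against 16.7 ± 0.195 FPKM in WT cells (-2.90). On the other side of Ak1, St6galnac6, at 952 bases, had -0.06 and did not pass. Tmem63a, 1098 bases from Ephx1, fell with -1.30, while Nvl on its other side rose with 0.14. Prmt1, 1138 bases from Cpt1c, rose to 126 ± 3.2 FPKM in p53-deficient cells, against 103 ± 0.263 FPKM in WT cells (0.28). The largest rise of the 20 was in Hmga1b, 35513 bases from Dcxr, with 185 ± 11.1 FPKM in p53-deficient cells and 52.7 ± 0.868 FPKM in WT cells (1.79), a value that is uncertain because Hmga1b is a near copy of Hmga1 and reads may be split between them.

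**Figure D5:**
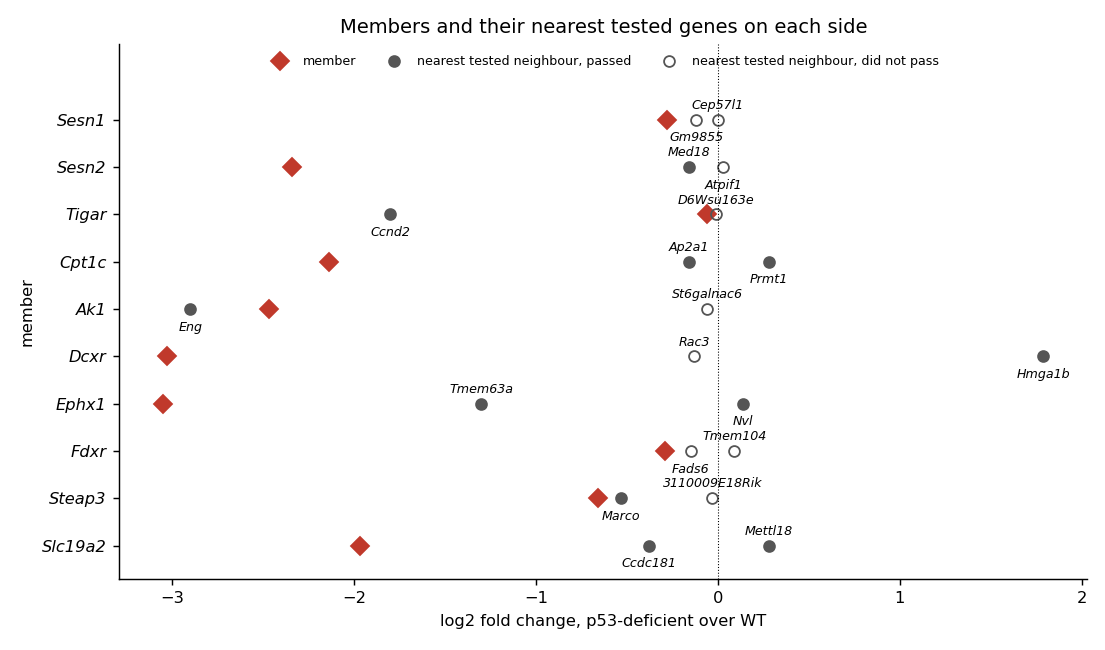
Log2 fold change, p53-deficient over WT (x axis), of the members (red diamonds) and of the nearest tested gene on each side (grey circles, open where the test was not passed). The neighbours of Sesn2, Cpt1c and Slc19a2 lie between -0.38 and 0.28, whereas Eng beside Ak1 is at -2.90 Ccnd2 beside Tigar at -1.80 and Hmga1b beside Dcxr at 1.79.

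RefSeq windows were found for all 10 members, 17 windows in all because some genes have several starts. At most 3 differences from the p53 consensus, counted with adjacent decamers and both C and G cores kept, were found in 2 of the 17 windows, those of Tigar and of the internal Sesn1 start, and in 1.38% of all 32851 windows. A stretch with both cores was absent from 3 of the 17 and from 30.4% of all windows. The letters TGACNNNGC, searched on both strands, were present in 4 of the 17, those of Sesn2 and 3 of Ak1, and in 12.4% of all windows. No match says only that these letters are not in this stretch of 300 bases. In the window nearest the gene's 5′ end, Dcxr, Ephx1, Ak1 and Cpt1c held 7, 5, 6 and 8 CpG dinucleotides and Steap3 held 4, where the median over all windows was 7. Sesn1, Sesn2, Tigar, Slc19a2 and Fdxr held 24, 23, 24, 28 and 17. Other windows of Ak1 held 2 to 10 and those of Steap3 5 to 16. A link between CpG number and the size of the fall was not tested.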

How the data were processed

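RNA was measured with poly(A) selection and the NEBNext Ultra kit, per the labels' protocols. The deposited values are FPKM, made by the authors for each gene; mm10, HISAT2 2.0.5 and featureCounts 1.5.0-p3 are named without their roles, per the submitters' processing notes. How reads with several matches were counted and the strand setting are not given in the sources used here. Multiplied by the gene length in the table, 100% of values came out as whole reads (tolerance 0.001), which gave rebuilt counts. Intervals on reads cover counting error only.

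Groups were compared in R 4.3.3 with limma 3.58.1 (variance trend, moderated, two-sided) on log2(FPKM + 1), keeping genes whose mean reached 0.5 FPKM, with Benjamini-Hochberg adjustment over 15144 genes. Log2 fold changes with this pseudocount understate changes of low genes. Family shares used exact permutation tests. The members, lists and rules were chosen with earlier results of these data known. Named genes are the members, Trp53, relatives in the members' families and, per list, up to 3 called genes with the largest change and the most abundant one that did not pass. Fdx1, Sco2, the stem cell markers, Prrx1, Vim and the neighbours fall outside that rule and were chosen after their values were seen. The same holds for the higher genes of the NRF2 list and for the genes lower in the mTORC1 list beyond the first 3. Some genes that the rule names, and the family sum and share of Ak1, are not reported here. Of 244 list symbols 244 were matched. Exon overlap came from GENCODE mouse release 21 (GRCm38), near-identical copies from BLAST+ 2.17.0 (95% identity over at least 100 bases and 50% of the shorter transcript), and promoter windows from RefSeq GRCm38.p6. Plots used Python 3.11.15 with matplotlib 3.10.9. No pair of libraries of a group agreed within sampling noise (chi-square per degree of freedom 1.86 to 2.84). The alternatives were other pseudocounts, filters and scalings, no variance trend, voom on rebuilt reads, the replicate number as a block, and each library left out.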

Additional observations from a re-analysis of the deposited data

How the results depend on the processing

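The count of members called lower was 9 with a pseudocount of 0.1, without a filter, after quantile normalization, without a variance trend, with voom on rebuilt reads and with the replicate block, 10 with each library scaled by its median log2 ratio, 7 with a mean FPKM of at least 5, where Cpt1c and Fdxr were not tested, and 8 or 9 without any 1 library. No member was called higher in any of these. The 9 called after quantile normalization included Tigar and not Fdxr. Across all genes the count lower was 4733 as reported and 2268 among the 7752 genes of mean FPKM at least 5, where fewer genes were tested. After scaling by the median log2 ratio, 4258 genes were higher and 5611 lower, against 5341 and 4733 as reported, and the median log2 fold change of all genes was -0.05 in place of 0.03. Among refits of single members 131 kept their side of the threshold, 5 of Fdxr lost the call and 2 of Tigar gained it, and none changed sign. In the related lists 298 recounts stayed within 1.5 times the reported count and 38 did not, and the cause was not tested. After quantile normalization the counts lower and higher were 4 and 2 for fructose 2,6-bisphosphate genes and 4 and 2 for pentose phosphate genes. They were 9 and 3 for carnitine, 5 and 5 for adenylate and 5 and 5 for carbonyl genes. For ferredoxin, iron and thiamine genes they were 4 and 4, 7 and 4, and 3 and 4. Stem cell markers gave 5 and 5. Taken on reads instead of per length, the share of Sesn1 differed by 15.3 in place of 21.7 percentage points, and 5 family shares in all moved beyond the spread between libraries, in the same direction. The replicate numbers share only a number: same-numbered libraries had correlations of -0.033, 0.014 and 0.006 between their deviations, and the replicate block gave 4579 genes lower and 5187 higher. Depth limits Dcxr and Cpt1c most, with 24 to 37 and 49 to 118 reads in p53-deficient libraries.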
